A study of Homo sapiens with 42 samples.

Results

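The human mitochondrial genome is annotated with 37 genes, of which 13 code for proteins, 2 for ribosomal RNAs (rRNAs) and 22 for transfer RNAs (tRNAs). They were taken by position, as every gene of the count tables that lies on chromosome M, which gave 37 of the 58243 gene IDs. All 37 genes had the same position and strand in GENCODE 44 on hg38, where chromosome M is 16569 bases long.

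As background, the mitochondrial genome is a compact circle that a dedicated RNA polymerase (POLRMT) copies from both strands into long precursor RNAs. Most of its genes carry the sequence of the strand that the annotation calls plus, and MT-ND6 and a group of tRNAs lie on the minus strand. Between the coding and rRNA genes lie tRNA genes, and cutting these tRNAs out at both ends, by a protein-only RNase P (with PRORP as its nuclease) and by ELAC2, releases the separate mRNAs and rRNAs. A mitochondrial poly(A) polymerase then adds short tails, which complete the stop codon of several mRNAs. The encoded proteins are subunits of the respiratory chain complexes I (MT-ND genes), III (MT-CYB) and IV (MT-CO genes) and of the ATP synthase (MT-ATP genes), while all proteins that copy, cut and stabilise these RNAs come from nuclear genes.

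The data are gene counts for 42 libraries of K562, a human chronic myeloid leukaemia cell line that carries the BCR-ABL1 kinase. All groups come from this 1 line. Cells were untreated (CTRL), or received 1 μM imatinib (IM), which blocks that kinase, 5 μM JTE-607 (JTE), which acts on CPSF73, the nuclease that cuts nuclear pre-mRNAs at their 3′ ends, or 110 mM KCl, a hyperosmotic stress. The mRNA libraries, made from poly(A) RNA of whole cells, hold 9 groups (CTRL, IM 1h, IM 6h, IM 18h, JTE 1h, JTE 6h, JTE 18h, KCl 1h and KCl 3h), and the nuclear libraries, made from rRNA-depleted RNA of isolated nuclei, hold 5 (CTRL, IM 1h, IM 18h, JTE 1h and KCl 1h), each with 3 biological replicates. The design compares each treatment with CTRL of its own fraction, later with earlier times of a treatment, and the nuclear with the mRNA response.

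Library totals lay between 16439848 and 62953314 counts for mRNA and between 16175394 and 25103205 for nuclear RNA. KCl 1h replicates 2 and 3 were the deepest, with 62953314 and 42474454 counts. Levels are given as normalised CPM, the counts of a gene scaled to library size with TMM factors within a fraction. The erythroid genes that mark K562, such as HBG1 (243 to 1647 CPM in mRNA) and GATA1 (118 to 204 CPM), were present in every library, as were all 8 of that list. Among markers of other blood cells, PF4 had 0 counts in every library, and CD3E had at most 7 and CD14 at most 63 counts in a library. MALAT1, NEAT1, KCNQ1OT1 and TUG1, listed as RNAs enriched in nuclei, together made up 0.221% to 0.393% of mRNA and 1.26% to 1.91% of nuclear library counts. MALAT1, NEAT1 and KCNQ1OT1 had medians of 2617, 145.5 and 33.91 CPM in mRNA and 14720, 1708 and 230 CPM in nuclear libraries. TUG1 went the other way, with 150.6 CPM in mRNA and 123.3 CPM in nuclear libraries. The mRNA groups held 18095 genes that passed the filter on low counts and the nuclear groups 21929. In both fractions 36 of the 37 mitochondrial genes passed and were tested, while MT-TW in mRNA and MT-TS1 in nuclear libraries did not pass.

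The genome's layout bears on how these counts can be read, so the sequences that show it are given first, 5′ to 3′ from hg38. In 6 of the 13 coding genes the annotated length is not a multiple of 3, so that the stop codon is only complete once the tail is added. The last 18 bases are shown for those among them whose levels are described in most detail, and for MT-ND5, which ends in a complete stop codon. Capitals mark the complete or incomplete stop codon.
MT-CO3 (chrM:9973-9990, plus strand): tctattgatgagggtctT
MT-ND3 (chrM:10387-10404, plus strand): gattagactgaaccgaaT
MT-ND4 (chrM:12120-12137, plus strand): ttaccgggttttcctctT
MT-ND1 (chrM:4245-4262, plus strand): cattccccctcaaaccTA
MT-ND5 (chrM:14131-14148, plus strand): ctactcctaatcacaTAA

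Of neighbouring genes, 5 pairs overlap. The largest overlap, 46 bases between MT-ATP8 and MT-ATP6, lies within 1 shared mRNA, so that read pairs there belong to both and were left out as ambiguous. Capitals mark the start codon of MT-ATP6 and the stop codon of MT-ATP8.
MT-ATP8 and MT-ATP6 (chrM:8527-8572, plus strand): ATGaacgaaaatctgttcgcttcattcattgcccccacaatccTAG

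All 22 tRNA genes lie within 3 bases of another gene and are 59 to 75 bases long, so a pair that reaches into the neighbour was not counted for either. The tRNA genes with most counts in both fractions (MT-TC and MT-TP) and the 2 that were called with the largest changes (MT-TF and MT-TM) are shown whole, with bases that also belong to a neighbouring gene in capitals.
MT-TC (chrM:5761-5826, minus strand): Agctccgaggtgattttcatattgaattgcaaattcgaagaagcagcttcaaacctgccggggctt
MT-TP (chrM:15956-16023, minus strand): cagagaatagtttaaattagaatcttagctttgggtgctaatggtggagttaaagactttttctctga
MT-TF (chrM:577-647, plus strand): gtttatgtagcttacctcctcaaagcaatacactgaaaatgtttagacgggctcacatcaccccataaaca
MT-TM (chrM:4402-4469, plus strand): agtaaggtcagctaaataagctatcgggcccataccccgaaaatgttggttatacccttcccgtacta

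Per kilobase of gene, the most abundant mitochondrial RNA in untreated mRNA libraries was MT-CO3, with 14406 ± 502 normalised CPM per kb (mean ± SD, n = 3). The genes described most below are MT-RNR1 (ENSG00000211459, chrM:648-1601), MT-RNR2 (ENSG00000210082, chrM:1671-3229), MT-CO3 (ENSG00000198938, chrM:9207-9990), MT-ND3 (ENSG00000198840, chrM:10059-10404), MT-ND4 (ENSG00000198886, chrM:10760-12137) and MT-ND5 (ENSG00000198786, chrM:12337-14148), all on the plus strand. MT-ND4 (13227 ± 508), MT-CO2 (13134 ± 740.2) and MT-ATP6 (12359.6 ± 657) followed. MT-CO3 lay above MT-ND4 in every library, while the next 3 overlapped each other in that order. Then came MT-CO1, MT-RNR2, MT-ND2, MT-ND4L, MT-ND1, MT-CYB and MT-ATP8, from 9643 ± 846 down to 3913 ± 195 CPM per kb. At the low end stood MT-ND3 (3117 ± 118), MT-RNR1 (2703 ± 324), MT-ND5 (2170.1 ± 322) and MT-ND6 (1720.0 ± 185), neighbours that overlapped in their 3 libraries.

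In untreated nuclear libraries MT-CO2 (9549.7 ± 1334 CPM per kb) and MT-CO3 (9043 ± 1124) were highest and did not differ beyond their spread. The coding genes ran down to MT-ND6 (1699 ± 361). Both rRNAs were far lower there, MT-RNR1 at 44.8 ± 6.04 and MT-RNR2 at 35.3 ± 2.82 CPM per kb, in libraries from which rRNA had been depleted. As a part of all mitochondrial counts, MT-RNR2 took 13.3% in mRNA CTRL and 0.0994% in nuclear CTRL. The fractions were prepared by different protocols, so levels are set side by side here without a test. The paper's blots of its cell fractions name GAPDH, tubulin, RNA polymerase II and histone H3, and no mitochondrial protein. How much of the mitochondria stayed with the nuclei was thus not measured. A change in that amount cannot be told apart from a change in mitochondrial RNA in any nuclear comparison below.

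Together the 37 genes took 10.9, 10.0 and 10.9% of the counts in the 3 untreated mRNA libraries. The lowest mean shares among the mRNA groups were those of KCl, with library values of 8.26, 9.95 and 8.56% at 1 h and 5.83, 7.21 and 6.75% at 3 h, and at both times every KCl library lay below every CTRL library. At 3 h the mean share was 0.622 times that of CTRL (log2 difference -0.69).

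IM 18h libraries held 12.6, 12.7 and 12.5% and JTE 6h libraries 11.2, 13.1 and 13.2%, in both groups above every CTRL library (log2 differences 0.25 and 0.24). In the other mRNA groups the share overlapped CTRL, with 10.7, 10.9 and 11.0% at IM 1h, 9.86, 11.6 and 11.7% at IM 6h, 10.5, 12.2 and 11.7% at JTE 1h and 9.60, 11.8 and 10.2% at JTE 18h. Nuclear CTRL libraries held 4.92, 6.20 and 5.56% and nuclear IM 18h libraries 6.45, 7.04 and 7.82%, again without overlap (log2 difference 0.36), whereas nuclear IM 1h (5.00, 5.80 and 5.68%), JTE 1h (5.23, 6.48 and 5.47%) and KCl 1h (4.39, 5.53 and 5.28%) overlapped CTRL. Within same-numbered nuclear libraries, which the pairing check links, the share at KCl 1h was lower than CTRL in all 3 pairs (mean log2 difference -0.13, SD 0.05), a difference not tested as pairs. Each share without overlap had a 2-sided exact permutation p of 0.1, the smallest that 3 against 3 libraries allow, and an adjusted p of 0.358 over the 68 shares and ratios tested, so none passed the threshold. These are shares of the RNA of all cells in a culture, in which less mitochondrial RNA per cell and more of other RNA cannot be told apart, nor can fewer cells of a kind and less RNA per cell.

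**Figure D1:**
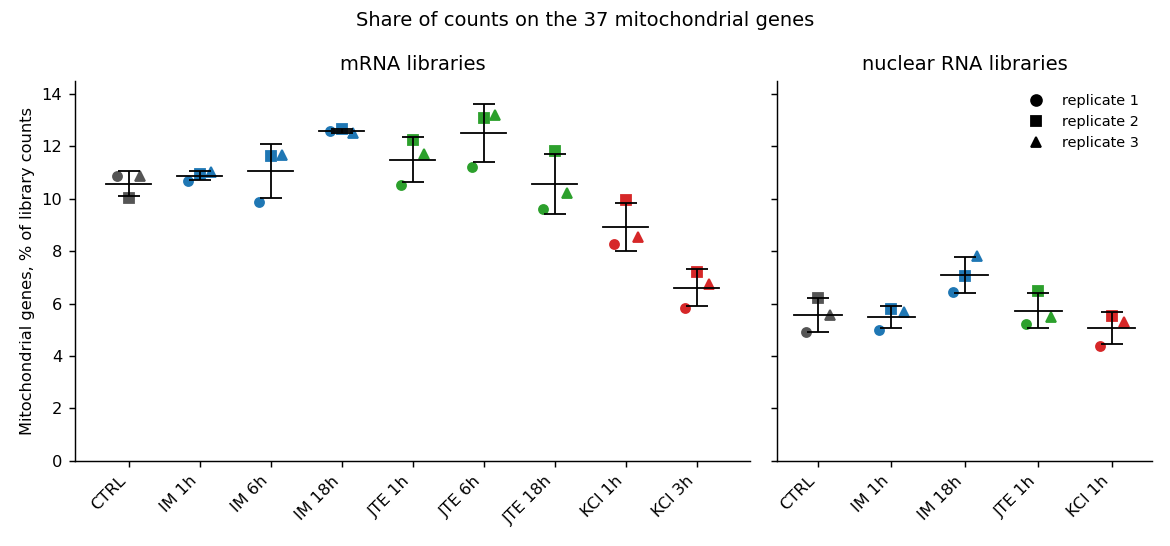
Percent of library counts on the 37 mitochondrial genes (y axis) in each library of the mRNA groups (left) and nuclear groups (right); circles, squares and triangles are replicates 1, 2 and 3, lines the mean and bars the SD. KCl 3h libraries sit lowest of the mRNA groups, at 5.83 to 7.21%, and IM 18h libraries sit close together at 12.5 to 12.7%.

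Hyperosmotic KCl had more mitochondrial genes called than any other treatment. At 3 h, 10 of the 13 coding genes fell and 1 tRNA gene rose, by edgeR's quasi-likelihood test. Every call here needed an adjusted p (Benjamini-Hochberg) below 0.05 together with an absolute log2 fold change above 0.6. Of all genes tested in this comparison, 11.9% were called and 7.33% were called lower. The median log2 fold change of the coding genes was -0.77, against 0.02 over all tested genes.

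The largest falls were in the middle of the gene order. MT-CO3, a core subunit of cytochrome c oxidase, had 11697, 10909.6 and 11275 CPM in CTRL and 4722, 6885 and 5489.7 CPM at KCl 3h, and fell (edgeR log2 fold change -0.99 ± 0.11 SE, adjusted p = 1.1e-06). All 3 treated libraries lay below all CTRL libraries, as for each of the 10 coding genes called. MT-ATP6, which forms part of the proton channel of the ATP synthase, went from 8766, 7913 and 8572 to 3819, 5082 and 4439 CPM (edgeR log2 fold change -0.92 ± 0.13 SE, adjusted p = 1.72e-05). MT-ATP8, on the same mRNA, went from 825, 764 and 841 to 369, 488 and 446 CPM (edgeR log2 fold change -0.90 ± 0.15 SE, adjusted p = 0.000115). The pair thus stood at -0.90 and -0.92, closer to each other than their standard errors.

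The remaining cytochrome c oxidase subunits fell too, MT-CO1 from 14869.7 ± 1305 to 8948 ± 1909.9 CPM (SD, n = 3, edgeR log2 fold change -0.73 ± 0.13 SE, adjusted p = 0.000231) and MT-CO2 from 8984 ± 506 to 5268 ± 620.2 CPM (edgeR log2 fold change -0.77 ± 0.11 SE, adjusted p = 1.67e-05). Of the 7 complex I genes, MT-ND3, MT-ND4, MT-ND4L, MT-ND2 and MT-ND6 were called lower. MT-ND4 had 19010.0, 17663 and 18006 CPM in CTRL and 8664, 11251 and 9797 at KCl 3h (edgeR log2 fold change -0.88 ± 0.12 SE, adjusted p = 8.97e-06), and MT-ND4L, which shares its mRNA and overlaps it by 7 bases, had a log2 fold change of -0.78 (SE 0.12). MT-ND3 stood at -0.89 (SE 0.13), MT-ND2 at -0.63 (SE 0.07) and MT-ND6, the coding gene on the minus strand, at -0.62 (SE 0.20). The edgeR adjusted p of these 4 lay between 8e-07 and 0.0337. The calls of MT-ND2 and MT-ND6 lie close to the fold threshold. Leaving out KCl 3h replicate 1 ended that of MT-ND2. That of MT-ND6 ended without CTRL replicate 1 or 2 or KCl 3h replicate 1 or 3. Counting did not use strand, so MT-ND6 counts include reads from plus-strand RNA over this gene.

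At both ends of the plus-strand gene order the differences were smaller. MT-ND5, the last complex I gene on the plus strand, had 4543, 3872 and 3382 CPM in CTRL and 3491, 4500.4 and 3306 at KCl 3h, values that overlapped (edgeR log2 fold change -0.06 ± 0.24 SE, adjusted p = 0.909). It was the only coding gene of the 13 whose KCl 3h libraries overlapped CTRL, beside 30.0% of all tested genes whose groups did not overlap. MT-CYB, the complex III subunit at the end of the gene order, had 5262, 4614 and 5907 and 3508, 4270.4 and 4199 CPM (edgeR log2 fold change -0.40 ± 0.15 SE, adjusted p = 0.0729). MT-ND1, the first coding gene after the rRNAs, had 5715, 4320.2 and 5446 and 3264, 4248 and 3704 CPM (edgeR log2 fold change -0.47 ± 0.19 SE, adjusted p = 0.118). Neither passed the test, although their groups did not overlap. In genome order the log2 fold changes were -0.47 for MT-ND1, -0.63 for MT-ND2, -0.73 for MT-CO1, -0.77 for MT-CO2 and -0.99 for MT-CO3, and then -0.89 for MT-ND3, -0.88 for MT-ND4, -0.06 for MT-ND5 and -0.40 for MT-CYB. This order was noticed in the data and not tested.

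**Figure D2:**
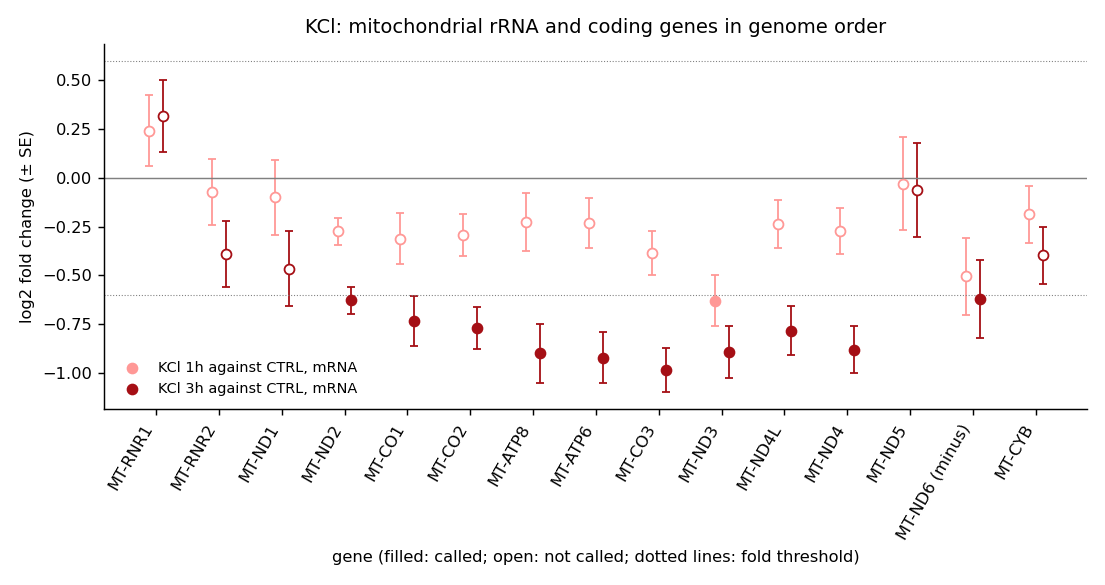
Log2 fold change against mRNA CTRL (y axis, bars are the SE of the edgeR fit) of the 2 rRNA and 13 coding genes in genome order (x axis) at KCl 1h (light) and KCl 3h (dark); filled points were called, open points were not, and dotted lines mark the fold threshold. At KCl 3h the values run from 0.32 for MT-RNR1 down to -0.99 for MT-CO3 and back to -0.06 for MT-ND5, and at KCl 1h only MT-ND3 (-0.63) was called.

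After 1 h of KCl 1 mitochondrial gene was called, in a comparison in which 5.45% of all tested genes were. MT-ND3 fell from 1115, 1086 and 1035 to 617, 835 and 638 CPM (edgeR log2 fold change -0.63 ± 0.13 SE, adjusted p = 0.00296), a call that ended without KCl 1h replicate 1 or 3. Without the low-count filter MT-ND3 missed the fold threshold (-0.60) and the 1 gene called was MT-TL1, a leucine tRNA gene (edgeR log2 fold change 0.91, adjusted p = 1.83e-05). The other 12 coding genes had log2 fold changes from -0.50 (MT-ND6) to -0.03 (MT-ND5), all below 0. Their median together with MT-ND3 was -0.27, against 0.01 over all tested genes.

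From 1 h to 3 h of KCl, MT-ATP6, MT-ATP8, MT-ND4 and MT-CO3 fell further, with 3.29% of all tested genes called and 1.92% called lower. MT-ATP6 had 6606, 8803 and 6103 CPM at KCl 1h (edgeR log2 fold change -0.69 ± 0.13 SE, adjusted p = 0.00166). MT-CO3 had 8162, 9786 and 8003 CPM at KCl 1h (edgeR log2 fold change -0.60 ± 0.11 SE, adjusted p = 0.0015). For MT-ATP8 and MT-ND4 the log2 fold changes were -0.67 and -0.61 (SE 0.15 and 0.12). All 4 values are near the fold threshold. Leaving out KCl 1h replicate 2 or KCl 3h replicate 1 ended all 4 calls. Leaving out KCl 3h replicate 3 ended those of MT-CO3 and MT-ND4, and MT-CO3 also missed the fold threshold with RLE scaling, DESeq2 and thinned counts (all -0.60). Without both deep KCl 1h libraries, a fit added after the data were seen, 0 were called. The replicate numbers pair these libraries, and with the number as a block 4 genes were called as well.

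Both rRNAs, which form the mitochondrial ribosome, did not pass the test at KCl 3h and had values of opposite sign. MT-RNR1, the small subunit rRNA, had 2606, 2256 and 2873 CPM in CTRL and 2892, 3529 and 3216 at KCl 3h (edgeR log2 fold change 0.32 ± 0.18 SE, adjusted p = 0.289). MT-RNR2, the large subunit rRNA, had 13281, 12302 and 16698 and 9512, 11021 and 11728 CPM (edgeR log2 fold change -0.39 ± 0.17 SE, adjusted p = 0.137). For neither did the groups overlap. Set against the coding genes, rRNA counts per 100 coding counts were 17.0, 17.1 and 22.2 in CTRL and 26.5, 23.5 and 28.5 at KCl 3h, without overlap (log2 difference 0.49, exact permutation p = 0.1). The mRNA libraries hold RNA selected by its poly(A) tail. A change in the amount of an RNA and a change in its capture cannot be told apart, in these or any other mRNA levels and ratios.

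A pair of ratios within the mitochondrial counts, chosen after their values were seen and therefore not tested, shows the same samples. MT-RNR1 counts per 100 MT-RNR2 counts were 19.6, 18.3 and 17.2 in CTRL, 21.4, 24.0 and 22.6 at KCl 1h and 30.4, 32.0 and 27.4 at KCl 3h. MT-ND5 counts per 100 MT-CO3 counts were 38.8, 35.5 and 30.0 in CTRL, 32.8, 44.7 and 56.1 at KCl 1h and 73.9, 65.4 and 60.2 at KCl 3h. The KCl 3h libraries were the highest of these in both ratios. Cytosolic ribosomal protein mRNAs took 6.73 to 7.10% of the counts at KCl 3h and 5.67 to 5.93% in CTRL, and the part of such shifts in the lower mitochondrial values was not tested. With scaling on nuclear-encoded genes instead of TMM, the 10 coding genes stayed called lower at KCl 3h.

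Imatinib at 18 h left no mitochondrial coding or rRNA gene past both thresholds in mRNA, in a comparison in which 30.5% of all tested genes were called. The median log2 fold change of the coding genes was 0.12 (0.04 over all tested genes), and in 8 of the 13 the groups did not overlap, beside 55.5% of all tested genes. The rRNAs again had opposite signs. MT-RNR2 had 13281, 12302 and 16698 CPM in CTRL and 22376, 19445 and 18907 at IM 18h, with every treated library higher (edgeR log2 fold change 0.52 ± 0.17 SE, adjusted p = 0.0159, under the fold threshold). MT-RNR1 had 1524, 2124 and 2080.3 CPM, each below the CTRL libraries (edgeR log2 fold change -0.43 ± 0.18 SE, adjusted p = 0.0599). MT-RNR1 counts per 100 MT-RNR2 counts were 6.81, 10.9 and 11.0 at IM 18h and 12.7, 14.4 and 10.8 at IM 6h, below the CTRL values given above.

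Among the coding genes at IM 18h, MT-ND4 and MT-ND2, both of complex I, passed the adjusted p and not the fold threshold. MT-ND4 had 22438, 22145 and 23422 CPM, above CTRL (edgeR log2 fold change 0.31 ± 0.12 SE, adjusted p = 0.0328). MT-ND2 had 7971, 8211 and 8509.9 CPM in CTRL and 6784, 6463 and 6717 at IM 18h, below CTRL (edgeR log2 fold change -0.31 ± 0.07 SE, adjusted p = 0.00104). The only call was MT-TM, the tRNA for methionine, with 7, 7 and 14 counts in CTRL and 1, 1 and 2 at IM 18h (edgeR log2 fold change -2.73 ± 0.92 SE, adjusted p = 0.0193). Over the summed counts its ratio was 0.142, with an exact 95% interval of 0.0361 to 0.405 that covers counting error only, and leaving out CTRL replicate 3 or IM 18h replicate 1 or 2 ended the call. The numbers of IM 18h and CTRL do not pair the libraries by the check made.

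Earlier imatinib times had no mitochondrial call by edgeR's quasi-likelihood test. At IM 1h (0.0166% of all tested genes called) 0 of the 36 genes had an unadjusted p under 0.05, beside 206 of all 18095. At IM 6h (9.94%) 2 had an unadjusted p under 0.05, beside 5379 of all 18095. DESeq2 called 0 at both times. Coding genes had log2 fold changes of -0.13 to 0.11 at IM 6h. Between times, edgeR called 0 from IM 1h to IM 6h (8.20% of all genes) and 0 from IM 6h to IM 18h (4.41%). DESeq2 called 0 in both. An unadjusted edgeR p under 0.05 was found for 1 and 10 mitochondrial genes, beside 4960 and 4382 of all 18095.

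**Figure D3:**
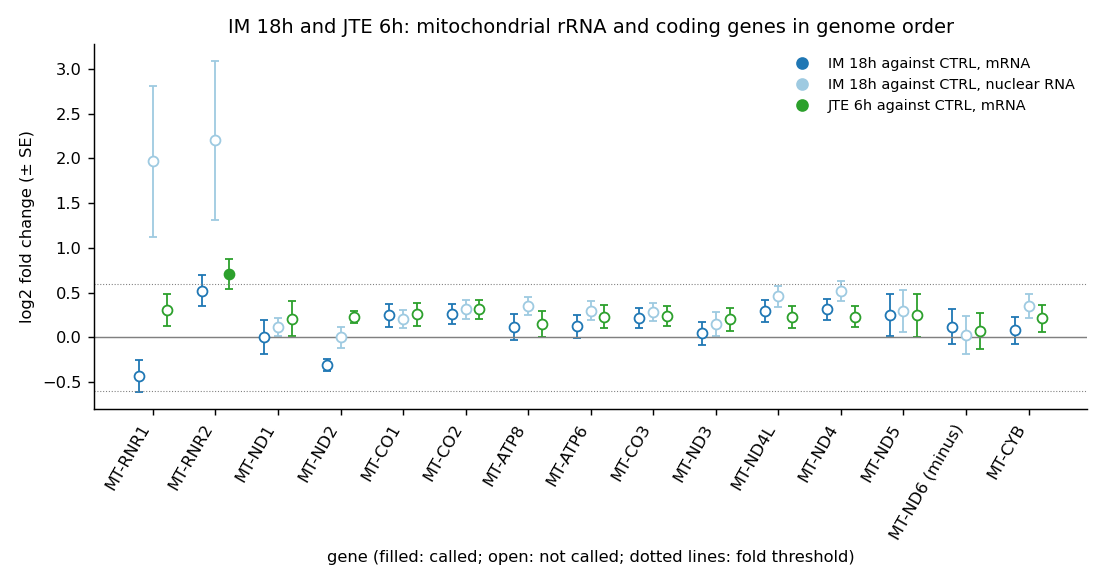
Log2 fold change against CTRL (y axis, bars are the SE of the edgeR fit) of the rRNA and coding genes in genome order (x axis) at IM 18h in mRNA (dark blue) and in nuclear RNA (light blue, against nuclear CTRL) and at JTE 6h in mRNA (green); filled points were called. The 1 filled point is MT-RNR2 at JTE 6h (0.71), and the nuclear rRNA values at IM 18h carry the longest error bars (SE 0.84 and 0.89).

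JTE-607 acts on the cutting of nuclear transcripts, and among mitochondrial genes it had 1 call, MT-RNR2 at 6 h, where 13.2% of all tested genes were called. MT-RNR2 had 21040.4, 20784 and 27262 CPM, above all CTRL libraries, and rose (edgeR log2 fold change 0.71 ± 0.17 SE, adjusted p = 0.00438). Without CTRL replicate 2 or JTE 6h replicate 3 this call was lost. All 13 coding genes had log2 fold changes above 0, with a median of 0.23 against 0.03 over all tested genes, and in 5 of them the groups did not overlap, beside 29.9% of all tested genes.

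At JTE 1h (0.851% of all tested genes called) and JTE 18h (5.39%), edgeR and DESeq2 called 0 mitochondrial genes. Of these genes 1 and 0 had an unadjusted edgeR p under 0.05, beside 1341 and 4101 of all 18095 tested. From 1 h to 6 h (9.21%) edgeR and DESeq2 called 0, with 1 mitochondrial gene at an unadjusted edgeR p under 0.05, beside 4445 of all. From 6 h to 18 h (13.4%) MT-RNR2 fell to 10456, 14795 and 12128 CPM, below every JTE 6h library (edgeR log2 fold change -0.89 ± 0.17 SE, adjusted p = 0.000718). The replicate numbers pair the JTE 6h and JTE 18h libraries, and with the number as a block 5 genes were called lower, MT-RNR2 and the tRNA genes MT-TV, MT-TQ, MT-TN and MT-TC, the tRNAs with edgeR adjusted p between 0.0259 and 0.0477.

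In nuclear RNA, IM 18h was the treatment with called mitochondrial genes. They were 3 tRNA genes, where 32.6% of all tested genes were called. Coding genes had a median log2 fold change of 0.30 (0.00 over all tested genes). An unadjusted edgeR p under 0.05 was found for 13 of the 36 mitochondrial genes and for 11435 of all 21929 tested. Of the 13 coding genes, 7 had an edgeR adjusted p under 0.05 with a fold change under the threshold. The largest of these was MT-ND4, with 7654, 9631 and 8090.4 CPM in CTRL and 11587, 11967 and 12786 at IM 18h, all higher (edgeR log2 fold change 0.52 ± 0.11 SE, adjusted p = 0.000851). MT-ND4L, on the same mRNA, had a log2 fold change of 0.46 (SE 0.12). In 5 coding genes the groups did not overlap, beside 53.6% of all tested genes.

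The tRNA genes called higher in nuclear IM 18h RNA were MT-TM, from 1.74, 2.32 and 1.68 to 3.87, 3.15 and 2.69 CPM (edgeR log2 fold change 0.77 ± 0.21 SE, adjusted p = 0.00546), MT-TW, for tryptophan, from 0.134, 0.0910 and 0.544 to 0.775, 0.382 and 1.05 CPM (edgeR log2 fold change 1.52 ± 0.55 SE, adjusted p = 0.0288), and MT-TD, for aspartate, from 0.268, 0.500 and 0.890 to 0.856, 1.34 and 1.58 CPM (edgeR log2 fold change 1.17 ± 0.43 SE, adjusted p = 0.0315). Only MT-TM had groups that did not overlap. These calls rest on low counts, with means over all nuclear libraries of 11.1 per library for MT-TW, 14.3 for MT-TD and 55.1 for MT-TM. With counts thinned to 1 depth MT-TM missed the fold threshold (0.58) and MT-TW was lost too, which left MT-TD as the 1 call. Leaving out 1 of several libraries ended the calls of MT-TW (CTRL replicate 1 or 2, IM 18h replicate 1 or 3) and MT-TD (CTRL replicate 1 or 2, IM 18h replicate 2 or 3).

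Nuclear IM 1h (0.0456% of all tested genes called), JTE 1h (8.52%) and KCl 1h (23.8%) had 0 mitochondrial calls by edgeR and by DESeq2. Unadjusted edgeR p values under 0.05 were found for 0, 2 and 5 mitochondrial genes, beside 844, 4775 and 7629 of all 21929. The replicate numbers pair all nuclear groups with CTRL, and with the number as a block 1 gene was called at KCl 1h, MT-TW (log2 fold change 1.31, edgeR adjusted p = 0.0323). Coding medians were 0.04, 0.07 and -0.09.

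Mitochondrial rRNA left in the rRNA-depleted nuclear libraries varied widely between replicates. MT-RNR2 had 53.1, 60.1 and 52.0 CPM in CTRL and 308, 64.1 and 25.9 at IM 1h, a range within 1 group that spans both sides of CTRL. It had 330.2, 216 and 213 CPM at IM 18h, 89.7, 97.3 and 412 at JTE 1h and 65.9, 138 and 209 at KCl 1h, each group above CTRL. Per 100 coding counts the rRNAs had 0.186, 0.175 and 0.170 counts in CTRL and 0.880, 0.530 and 0.500 at IM 18h (log2 difference 1.80, exact permutation p = 0.1). This ratio also lay above every CTRL library at JTE 1h (1.41) and KCl 1h (1.27), each with the same exact permutation p. IM 1h (0.49) overlapped CTRL. In the edgeR fit neither rRNA passed at IM 18h, with adjusted p = 0.0816 for MT-RNR1 and 0.0675 for MT-RNR2. Both were called by DESeq2 (log2 fold change 1.98 and 2.22, adjusted p = 0.0325 and 0.0199), by edgeR on the CTRL and IM 18h libraries alone (adjusted p = 6e-06 and 3.62e-06) and by edgeR without the low-count filter. Depletion removes rRNA during library preparation, so how much was left by it and how much came with the isolated nuclei cannot be told apart.

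**Figure D4:**
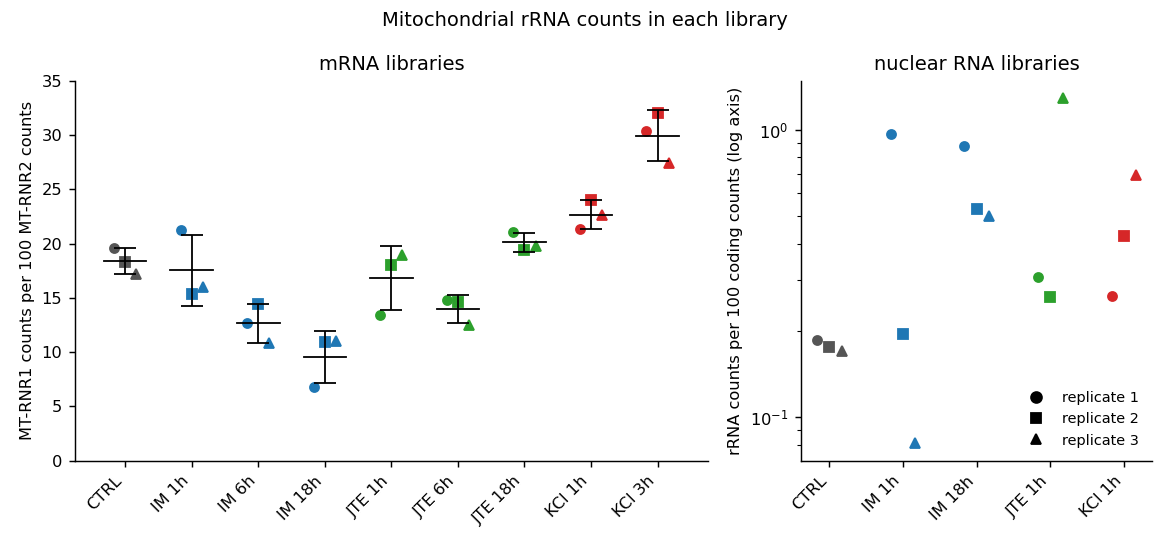
Left, MT-RNR1 counts per 100 MT-RNR2 counts (y axis) in each mRNA library, with lines as means and bars as SD. Right, counts of both rRNAs per 100 coding counts in each nuclear library (log axis, no mean drawn). Circles, squares and triangles are replicates 1, 2 and 3. On the left KCl 3h lies highest, at 27.4 to 32.0, and IM 18h lowest, at 6.81 to 11.0. On the right CTRL libraries lie at 0.170 to 0.186, while IM 1h libraries spread over 0.0811 to 0.969.

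The response to IM 18h differed between fractions for 3 mitochondrial genes, in a fit of the 12 CTRL and IM 18h libraries in which 0.0851% of all tested genes were called. The nuclear log2 change was higher than the mRNA change by 2.47 for MT-RNR1 (SE 0.24, edgeR adjusted p = 0.000174), by 1.75 for MT-RNR2 (SE 0.22, adjusted p = 0.00334) and by 3.56 for MT-TM (SE 0.64, adjusted p = 0.0415). Both rRNA calls held without any 1 library, and MT-TM was lost in 10 of 12 such fits. Depletion of rRNA was used for nuclear libraries only, and its part in both rRNA values was not tested. In the fit of all nuclear libraries neither rRNA was called at IM 18h. For IM 1h (0% of all tested genes called), JTE 1h (0.0605%) and KCl 1h (0.668%), edgeR called 0 mitochondrial genes. Of them 0, 0 and 6 had an unadjusted edgeR p under 0.05, beside 395, 1175 and 2035 of all tested genes. Both rRNAs had differences of the same sign there. These were 1.121 to 1.138 at IM 1h, 1.615 to 1.643 at JTE 1h and 0.8892 to 1.278 at KCl 1h. All these comparisons share the CTRL libraries of both fractions.

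The 22 tRNA genes were a small part of the mitochondrial counts, at 1.92, 1.74 and 1.57 per 1000 coding counts in mRNA CTRL and 3.15, 3.04 and 3.43 in nuclear CTRL. MT-TC (cysteine) and MT-TP (proline), both read from the minus strand, held most of them, with 36.8% and 21.4% of tRNA counts in mRNA and 36.2% and 20.2% in nuclear libraries. MT-TL1 (leucine) and MT-TN (asparagine) followed in mRNA with 11.3% and 10.6%, and MT-TN had 11.7% in nuclear libraries. Counting did not use strand, so reads from the RNA opposite these genes are included. MT-TF (phenylalanine), at the start of the plus-strand transcript, took 0.210% in mRNA and 12.8% in nuclear libraries, a mean of 7.26 and 452 counts per library.

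Under KCl the tRNA counts per 1000 coding counts were 1.99, 2.21 and 2.10 at 1 h and 2.60, 2.75 and 2.63 at 3 h, above every CTRL library (log2 differences 0.27 and 0.62, exact permutation p = 0.1 for each). The tRNA gene called at KCl 3h was MT-TF, with 2, 2 and 4 counts in CTRL and 17, 21 and 14 at KCl 3h (edgeR log2 fold change 2.49 ± 0.70 SE, adjusted p = 0.0151). Over the summed counts the ratio was 5.80, with an exact 95% interval of 2.74 to 14.2, and leaving out CTRL replicate 1 or 2 or KCl 3h replicate 2 ended the call. The other 20 tested tRNA genes were not called, at a median of -0.19 over all 21. In nuclear IM 18h RNA the tRNA counts per 1000 coding counts were 2.74, 2.54 and 2.77, below all nuclear CTRL libraries (log2 difference -0.26). Nuclear IM 1h libraries (2.83, 2.64 and 3.01, log2 difference -0.18) and mRNA IM 6h libraries (1.53, 1.45 and 1.48, -0.22) also lay below every CTRL library of their fraction, each with an exact permutation p of 0.1. In nuclear JTE 1h and KCl 1h RNA the groups overlapped CTRL (log2 differences -0.10 and -0.22). All 4 nuclear treatments were lower in all 3 same-numbered pairs. Of all library counts, tRNA genes took means of 0.0155% in mRNA CTRL and 0.0139% at KCl 3h, with overlap, and coding genes 8.90% and 5.23%. For nuclear CTRL and IM 18h these were 0.0177% and 0.0189%, again with overlap, and 5.53% and 7.04%.

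**Figure D5:**
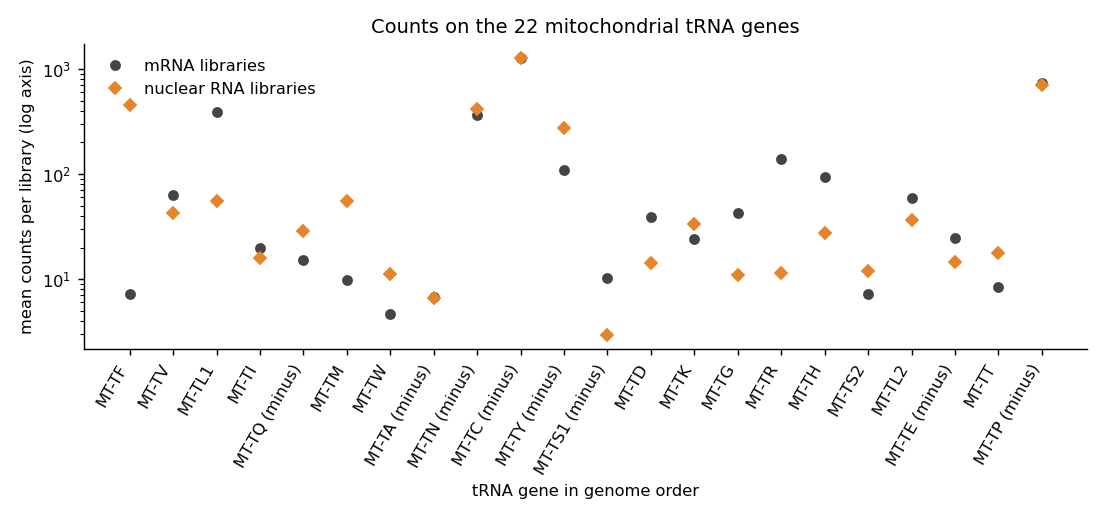
Mean counts per library (y axis, log) of the 22 tRNA genes in genome order (x axis) over the mRNA libraries (circles) and the nuclear libraries (diamonds). MT-TC and MT-TP lead in both fractions, and MT-TF has a mean of 7.26 counts per mRNA library and 452 per nuclear library.

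MT-ND6, the coding gene of the minus strand, was set against the 12 coding genes of the plus strand. It had 1.09, 1.04 and 0.940 counts per 100 of theirs in CTRL, 0.766, 0.868 and 0.975 at KCl 1h and 1.16, 1.11 and 1.05 at KCl 3h. KCl 3h lay above KCl 1h in every library (log2 difference 0.35, exact permutation p = 0.1), but against MT-ND5 and MT-CYB alone the difference was 0.0081. In nuclear RNA every treatment overlapped CTRL and was lower in every same-numbered pair. The log2 differences there were -0.11 at IM 1h, -0.27 at IM 18h, -0.14 at JTE 1h and -0.10 at KCl 1h, not tested as pairs. Reads from plus-strand RNA over MT-ND6 are included in its counts, since counting did not use strand.

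Nuclear genes that serve the mitochondrial genome were followed in 5 lists of 50 genes, for transcription, RNA processing, RNA stability, DNA maintenance and regulation of mitochondrial biogenesis. Of the 49 tested, 2 rose and 19 fell in mRNA at IM 18h (median log2 fold change -0.50, against 0.04 over all genes), and 1 rose and 24 fell in nuclear RNA at IM 18h (median -0.60), beside 30.5% and 32.6% of all tested genes called in either direction. TWNK, the helicase that unwinds mitochondrial DNA, fell in mRNA (CTRL 56.4, 39.9 and 60.6 CPM, treated 11.1, 19.7 and 16.8 CPM, edgeR log2 fold change -1.72 ± 0.24 SE, adjusted p = 5.7e-06) and in nuclear RNA (CTRL 57.5, 64.0 and 62.6 CPM, treated 11.7, 17.1 and 16.6 CPM, edgeR log2 fold change -2.02 ± 0.14 SE, adjusted p = 1.2e-09). PPARGC1B, a coactivator from the list for mitochondrial biogenesis, fell as well (78.6 ± 18.7 CPM in CTRL and 22.2 ± 6.04 treated, SD, n = 3, edgeR log2 fold change -1.82 ± 0.28 SE, adjusted p = 1.66e-05 in mRNA). MTERF2, of the mitochondrial termination factor family, rose in mRNA (24.4 ± 2.24 CPM in CTRL and 53.2 ± 3.46 treated, SD, n = 3, edgeR log2 fold change 1.13 ± 0.23 SE, adjusted p = 0.000422), as did FASTK (log2 fold change 0.63), whose family binds mitochondrial RNAs.

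At IM 6h 9 of these 49 genes fell and 0 rose, beside 9.94% of all tested genes called, with TWNK and PPARGC1B among those that fell. At JTE 6h 1 rose and 2 fell, beside 13.2% of all tested genes called. PRORP, the nuclease of mitochondrial RNase P, rose (CTRL 6.61, 5.81 and 7.96 CPM, treated 10.5, 11.0 and 14.4 CPM, edgeR log2 fold change 0.82 ± 0.16 SE, adjusted p = 0.000589), and TRNT1, which adds the CCA end to tRNAs, fell (CTRL 39.3, 41.0 and 40.1 CPM, treated 22.4, 24.9 and 23.5 CPM, edgeR log2 fold change -0.77 ± 0.11 SE, adjusted p = 1.8e-05), as did MTERF2. At KCl 3h 0 rose and 2 fell, MTERF1 (CTRL 26.6, 26.5 and 32.8 CPM, treated 17.8, 15.6 and 15.9 CPM, edgeR log2 fold change -0.80 ± 0.11 SE, adjusted p = 1.64e-05) and MTERF4 (CTRL 21.2, 16.3 and 19.7 CPM, treated 11.2, 14.8 and 10.1 CPM, edgeR log2 fold change -0.66 ± 0.16 SE, adjusted p = 0.00396), both of the termination factor family, beside 11.9% of all tested genes called. At JTE 18h POLG2, an accessory subunit of the mitochondrial DNA polymerase, was the 1 gene that fell (log2 fold change -0.76, beside 5.39% of all tested genes called). Between times, 8 of the 49 fell and 0 rose from IM 1h to IM 6h, beside 8.20% of all tested genes called. SSBP1, which binds single-stranded mitochondrial DNA, was the 1 gene that fell from IM 6h to IM 18h (-0.63, beside 4.41%). From JTE 1h to JTE 6h 1 rose and 2 fell, beside 9.21%. From JTE 6h to JTE 18h PTCD1 (-1.02) and the transcription factor gene NRF1 (-0.78) fell and MTERF2 (0.98) rose, beside 13.4%. In nuclear RNA at KCl 1h TRNT1 was the 1 gene that fell, beside 23.8% of all tested genes called (CTRL 53.0, 40.9 and 42.8 CPM, treated 32.8, 27.1 and 24.1 CPM, edgeR log2 fold change -0.70 ± 0.12 SE, adjusted p = 0.00015). At IM 1h, JTE 1h and KCl 1h in mRNA and at IM 1h and JTE 1h in nuclear RNA, edgeR called none of the 49.

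Copies of mitochondrial genes inserted in nuclear chromosomes resemble them in sequence. Of 14 such copies listed, 7 were in the count table and made up 0.120% to 0.300% of mRNA library counts. At KCl 3h 5 of them were called lower, beside 7.33% of all tested genes, with log2 fold changes of -0.87 for MTATP6P1 and -0.71 for MTCO1P12, the 2 with most counts, beside -0.92 for MT-ATP6 and -0.73 for MT-CO1. The authors kept uniquely mapped pairs, so pairs from stretches that are identical in both are missing from the counts of both.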

How the data were processed

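Poly(A) RNA of whole K562 cells (27 libraries) and rRNA-depleted nuclear RNA (15 libraries) were sequenced, with 3 biological replicates per group, grouped by their labels. The authors trimmed and deduplicated reads with fastp, aligned them to hg38 with STAR, kept uniquely mapped pairs and counted pairs per gene over exons with featureCounts, without a strand setting. The annotation release was not given in the sources used here. The deposited values are raw counts per gene, and 0 count columns lacked a sample. Deduplication without molecular identifiers can lower abundant transcripts, and pairs over more than 1 gene were left out. Precision follows from 844954 to 6261855 mitochondrial counts per library, while single tRNA genes can have under 10.

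Counts were fitted once per fraction in edgeR 4.0.16 (R 4.3.3) with TMM scaling, filterByExpr and the robust quasi-likelihood test. A call needed an adjusted p (Benjamini-Hochberg, over all tested genes) below 0.05 together with an absolute log2 fold change above 0.6. Shares and ratios were compared by 2-sided exact permutation tests. Interaction fits compared the fractions. All coding and rRNA genes, the 4 tRNA genes with most counts per fraction and the 2 pseudogene copies with most counts were named, and of the list genes, per comparison, up to 2 called genes with the largest rise and 2 with the largest fall. Other called tRNA genes were named after their values were seen. The members and lists were chosen with earlier results of these data known. Of the list of other blood cell markers, 1 gene is not reported here. The fit was tested on simulated data. Alternatives were other scalings, filters and thresholds, DESeq2 1.42.0, thinned counts, a replicate block, fits of 2 groups only and leaving out each library.

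Pairing was checked from the correlation of same-numbered libraries' deviations from their group means. It was above 0.1 for every pair in the 4 nuclear comparisons with CTRL and, in mRNA, for IM 6h with IM 1h, JTE 6h with JTE 1h, JTE 18h with JTE 6h and KCl 3h with KCl 1h, from 0.112 to 0.891. It was not above 0.1 for every pair in mRNA treatments with CTRL or in IM 18h with IM 6h. Values there were mixed, from -0.266 to 0.877 for IM 1h with CTRL. The paper lists 19031221 mapped reads for its mRNA CTRL replicate 1 and 18333127 for replicate 2. The labels used here give these totals to replicates 2 and 1, and pairing with the numbers exchanged was not checked. The pairing used here comes from the data, since the labels do not say what a number shares.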

Additional observations from a re-analysis of the deposited data

Results flagged for a closer look

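Between times or fractions, the effects on these genes differed by a test of the difference itself. From JTE 6h to JTE 18h MT-RNR2 differed by -0.89 on the log2 scale. From KCl 1h to KCl 3h the log2 differences were -0.67 for MT-ATP8, -0.69 for MT-ATP6, -0.60 for MT-CO3 and -0.61 for MT-ND4. The IM 18h response in nuclear RNA exceeded that in mRNA by 2.47 for MT-RNR1, 1.75 for MT-RNR2 and 3.56 for MT-TM. That fit left out the other nuclear treatments, and with all nuclear libraries neither rRNA was called at IM 18h. Groups of 3 were not searched for single outlying libraries.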

How the results depend on the processing

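Mitochondrial shares, rRNA and tRNA ratios and coding medians moved by less than the spread between replicates under all alternatives. No called gene changed direction. For shares and ratios, leaving out 1 of 3 libraries cannot move a group mean that far, and the block leaves the mean difference as it is. Only other denominators, coding genes alone and counts per gene length could have shown otherwise for them. Small differences did change sign when 1 library was left out, and the nuclear rRNA ratio at IM 1h (0.49) then ranged from -0.49 to 1.30. Against MT-ND5 and MT-CYB the MT-ND6 log2 difference turned from 0.06 to -0.18 for JTE 18h and from 0.11 to -0.38 for KCl 3h against CTRL, and from 0.25 to -0.018 for JTE 18h against 6h, and went from 0.35 to 0.0081 for KCl 3h against 1h. Counts of called genes moved most. Without the low-count filter they were 1 at IM 6h, 3 at IM 18h, 1 for IM 6h against 1h, 2 for IM 18h against 6h, 1 for JTE 6h against 1h and 3 for JTE 18h against 6h, in nuclear RNA 2, 5, 2 and 3 at IM 1h, IM 18h, JTE 1h and KCl 1h, and for the fraction differences 2, 2 and 1 at IM 1h, JTE 1h and KCl 1h. Without the fold threshold they were 4 at IM 18h, 3 at JTE 6h, 3 at KCl 1h, 1 for IM 18h against 6h, 6 for JTE 18h against 6h, 7 for KCl 3h against 1h, and 11 and 2 at nuclear IM 18h and KCl 1h. RLE scaling, scaling on nuclear-encoded genes and DESeq2 each gave 2 at IM 18h. DESeq2 gave 2 for JTE 18h against 6h and 5 at nuclear IM 18h. With 2 groups only, IM 6h had 1, IM 18h 2, nuclear IM 18h 5 and nuclear KCl 1h 2. Thinned counts gave 1 at nuclear IM 18h. Without both deep KCl 1h libraries, added after seeing the data, KCl 3h against 1h had 0. The replicate block gave 3 at IM 18h, 1 for IM 18h against 6h and 13 at KCl 3h. Numbers did not pass the pairing check there. It gave 5 for JTE 18h against 6h and 1 at nuclear KCl 1h, and changed no other count by over 1.5 times. Leaving out 1 library gave 0 to 2 at IM 18h, 0 to 1 at JTE 6h, KCl 1h, nuclear JTE 1h and nuclear KCl 1h, 1 to 3 for JTE 18h against 6h and at nuclear IM 18h, 0 to 6 for KCl 3h against 1h, 0 to 2 for the KCl 1h fraction difference and 9 to 11 at KCl 3h against CTRL. The causes were not tested. Depth limits the rarer tRNA genes, with mean counts per mRNA library of 4.67 for MT-TW, 6.70 for MT-TA and 7.26 for MT-TF.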
